A study of Danio rerio with 6 samples.

Results

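Expression of 9 retinal transcription factor genes (crx, otx5, nr2e3, thrb, tbx2b, rx1, rx2, atoh7 and vsx1) was followed in zebrafish embryos (whole animals) collected 3 days after fertilisation. The genes were taken by their symbols in the deposited count files, which list 31452 genes, and each symbol matched a single gene. They were grouped by their best known role into 5 photoreceptor factors (crx, otx5, nr2e3, thrb, tbx2b), 3 progenitor factors (rx1, rx2, atoh7) and 1 bipolar cell factor (vsx1). RNA was sequenced from 6 pools of 15 embryos. In 3 pools the embryos carried Tg(14xUAS:GFP-EWSR1-ERG), a transgene for GFP fused to the human Ewing sarcoma fusion protein EWSR1-ERG, together with the Gal4 driver line Et(E1b:Gal4-VP16)s1101t, which is active in neurons, and the reporter Tg(UAS:Kaede)s1999t. The other 3 pools were wild-type siblings that did not express the fusion. The labels name the same cross for both groups and do not say whether the siblings carried driver or reporter, so effects of the fusion and of these transgenes cannot be told apart. The transgene is not among the genes listed, and its expression was not measured.

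In the vertebrate eye, retinal progenitors are set up by homeobox factors of the Rx family and then give rise to ganglion, amacrine, horizontal, bipolar, photoreceptor and Müller glial cells. Photoreceptor precursors express Otx-family homeobox factors such as Crx, which act on the genes of phototransduction and the outer segment, and nuclear receptors and T-box factors then direct rod and cone subtypes. In fish the rx genes are also expressed in photoreceptors and at the ciliary margin, where the retina keeps growing, so that the class names used here mark roles and not separate cells. Otx5 and crx are expressed in the pineal organ as well as in the retina, while thrb and tbx2b have further sites of expression in the embryo.

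Library totals ran from 4771843 to 13338802 counts, the deepest being EWSR1-ERG replicate 3, whose file name carries another lane number than the others. The share of mitochondrially encoded genes was 3.87% to 4.35% in wild-type pools and 2.64% to 2.99% in EWSR1-ERG pools. The part of depth and of this share in the results was not tested. The pools are called biological replicas in the labels, with no statement on separate clutches, and the p-values therefore reflect only the variation among these pools, which may be technical.

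Most of the retinal factors were lower in EWSR1-ERG embryos, and none rose. In a quasi-likelihood test with edgeR, with p-values adjusted by Benjamini-Hochberg over 17557 tested genes, 6 of the 9 fell at an adjusted p under 0.05: crx, otx5 and nr2e3 among the photoreceptor factors, rx1 and rx2 among the progenitor factors, and vsx1. Across all tested genes, 9.87% fell and 7.46% rose by the same rule. The same 6 genes had every EWSR1-ERG pool below every wild-type pool, which was the case for 18% of all tested genes. The median log2 fold change over the 9 genes was -0.72, beside 0.0047 over all tested genes, and all 9 passed the filter on low counts. The pools held whole embryos, so that fewer cells of a type and less RNA per cell cannot be told apart.

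**Figure D1:**
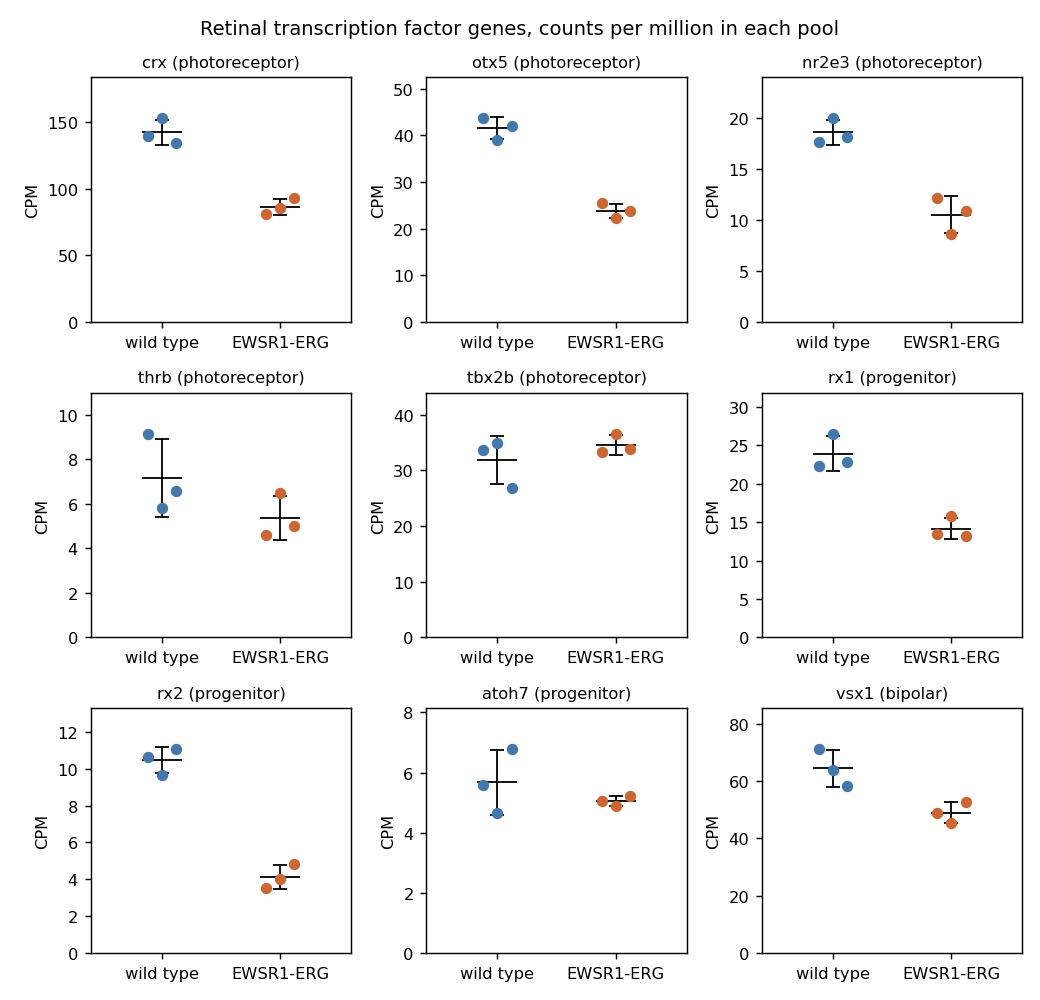
Counts relative to library size (CPM, linear axes from 0, a scale of its own in each panel) of the 9 retinal factors in each of the 3 wild-type and 3 EWSR1-ERG pools, with the mean and SD as bars. The groups are separate for crx, otx5, nr2e3, rx1, rx2 and vsx1 and overlap for thrb, tbx2b and atoh7.

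Among the photoreceptor factors, the Otx-family genes fell by similar amounts. The cone-rod homeobox gene crx (ENSDARG00000011989, chromosome 5 of Zv9) stood at 139, 153 and 135 CPM in wild-type pools 1 to 3 and at 80.9, 85.4 and 93.0 CPM in the EWSR1-ERG pools. The highest EWSR1-ERG pool was thus well below the lowest wild-type pool. The means were 142 ± 9.49 and 86.4 ± 6.13 CPM (SD, n = 3 each), a log2 fold change of -0.72 (SE 0.105) or 1.64-fold lower, with an edgeR adjusted p of 0.000297. Its relative otx5 (ENSDARG00000043483, chromosome 15), which acts in the pineal organ and in photoreceptors of zebrafish, stood at 43.7, 38.9 and 42.0 CPM for wild type against 25.4, 22.2 and 23.7 CPM for EWSR1-ERG. Its log2 fold change was -0.80 (SE 0.116, edgeR adjusted p = 0.000275), or 1.74-fold lower. Crx and otx5 belong to one gene family, the name table used here lists the otx5 identifier as CRX, and the labels do not state how reads matching both genes were counted.

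The nuclear receptor gene nr2e3 (ENSDARG00000045904, chromosome 25), which promotes rod fate, had 104, 103 and 80 counts in wild-type pools and 79, 49 and 141 in EWSR1-ERG pools, where the last library was the deepest. Scaled to library size these were 17.6, 19.9 and 18.1 against 12.1, 8.57 and 10.8 CPM. All EWSR1-ERG pools were lower than all wild-type pools, although they varied more among themselves. The log2 fold change was -0.81 (SE 0.164, edgeR adjusted p = 0.00365), or 1.75-fold lower.

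The remaining photoreceptor factors did not pass the test. Thrb (ENSDARG00000021163, chromosome 19), the thyroid hormone receptor needed for red cones in zebrafish, had 29 to 54 counts in wild-type and 30 to 65 in EWSR1-ERG pools. It stood at 9.14, 5.81 and 6.55 CPM in the wild-type pools, compared with 4.59, 6.47 and 4.99 CPM in the EWSR1-ERG pools, so that the groups overlapped and wild-type replicate 1 lay above the other pools. Its log2 fold change of -0.45 had a 95% interval from -0.97 to 0.07 (edgeR adjusted p = 0.235), which includes both no difference and a decrease as large as that of crx. Tbx2b (ENSDARG00000006120, chromosome 15), a T-box factor that promotes ultraviolet cones over rods in zebrafish, stood at 33.7, 34.8 and 26.9 CPM for wild type against 33.2, 36.6 and 33.8 CPM for EWSR1-ERG. The log2 fold change was 0.11 with an interval from -0.16 to 0.38 (edgeR adjusted p = 0.61). That interval lies above the estimates for crx, otx5 and nr2e3.

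Of the progenitor factors, both rx genes fell. The homeobox gene rx2 (ENSDARG00000040321, chromosome 2), which marks stem cells of the ciliary margin and photoreceptors in fish, stood at 10.7, 9.68 and 11.1 CPM in the wild-type pools, compared with 3.52, 4.02 and 4.84 CPM in the EWSR1-ERG pools. Every EWSR1-ERG pool was at 33.6% to 46.2% of the wild-type mean. At a log2 fold change of -1.30 (SE 0.209, edgeR adjusted p = 0.000626), or 2.47-fold lower, it had the largest estimated decrease of the 9 genes. It rests on 49 to 63 counts in wild-type and 23 to 63 counts in EWSR1-ERG pools. Its paralog rx1 (ENSDARG00000071684, chromosome 22) stood at 22.3, 26.5 and 22.8 CPM for wild type against 13.5, 15.7 and 13.2 CPM for EWSR1-ERG, again without overlap. The log2 fold change of rx1 was -0.77 (SE 0.144, edgeR adjusted p = 0.00217), or 1.70-fold lower.

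The 95% interval of rx2, from -1.75 to -0.86, overlaps that of rx1, from -1.08 to -0.46, and the difference between these paralogs was not tested. The proneural gene atoh7 (ENSDARG00000069552, chromosome 13), which is needed in progenitors for ganglion cells to form, was measured with 24 to 33 counts in wild-type and 28 to 68 in EWSR1-ERG pools. It stood at 5.59, 4.65 and 6.78 CPM in the wild-type pools, compared with 5.05, 4.90 and 5.22 CPM in the EWSR1-ERG pools. The EWSR1-ERG values lay inside the wild-type range. Its log2 fold change was -0.15 with an interval from -0.64 to 0.34 (edgeR adjusted p = 0.719), so that a decrease of the size of crx lies outside the interval but one of 1.5-fold does not.

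The bipolar cell factor vsx1 (ENSDARG00000056292, chromosome 17), a homeobox gene of bipolar interneurons, had the smallest decrease among those that passed. As the pools held whole embryos, the cells that its RNA came from were not known. Vsx1 stood at 71.1, 63.9 and 58.3 CPM for wild type against 48.7, 45.3 and 52.6 CPM for EWSR1-ERG. No EWSR1-ERG pool reached the wild-type range, with the lowest wild-type pool close above the highest EWSR1-ERG pool. The log2 fold change was -0.40 (SE 0.113, edgeR adjusted p = 0.027), or 1.32-fold lower. This call depended on the libraries and the tool. It ended without wild-type replicate 1 (-0.32, adjusted p = 0.137), without wild-type replicate 2 (-0.41, adjusted p = 0.0973), without EWSR1-ERG replicate 2 (-0.34, adjusted p = 0.106) and by DESeq2 (-0.39, adjusted p = 0.0572). The calls of the other 5 genes held in all 13 alternatives that were run.

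**Figure D2:**
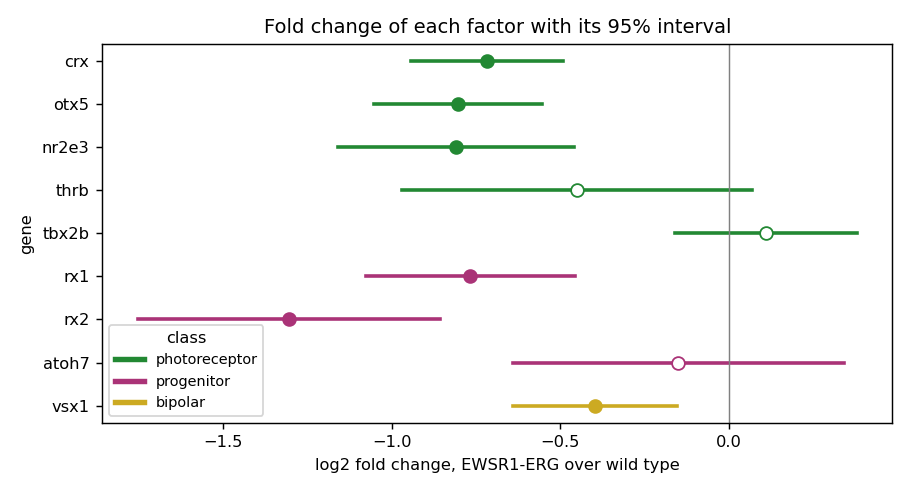
Log2 fold change of EWSR1-ERG over wild type for each factor (points) with its 95% interval (lines), coloured by class, filled where the edgeR adjusted p was under 0.05. The intervals of crx, otx5, nr2e3, rx1, rx2 and vsx1 lie below 0, with rx2 at -1.30 and vsx1 at -0.40, and those of thrb, tbx2b and atoh7 include 0.

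Set beside each other, the photoreceptor factors ran from -0.81 to 0.11 in log2 fold change and the progenitor factors from -1.30 to -0.15. The only bipolar factor lay within both ranges. With so few genes per class, a difference between the classes could not be tested. Of 5 photoreceptor factors 3 fell (median log2 fold change -0.72), of 3 progenitor factors 2 fell (median -0.77), and the only bipolar factor was at -0.40. A gene that did not pass thus stood beside genes that fell in both larger classes. Over all tested genes, 9.87% fell by the same rule. Whether a gene of one class changed more than a gene of another was tested with the log2 ratio of their scaled counts in each pool, for crx, rx1 and vsx1. The log2 ratio of crx to rx1 was 2.56 ± 0.0567 in wild-type and 2.59 ± 0.187 in EWSR1-ERG pools (mean ± SD, n = 3 each), a difference of 0.03 (two-sided exact permutation p = 0.8). The log2 ratio of crx to vsx1 was 1.14 ± 0.154 and 0.82 ± 0.0907, so that crx was lower relative to vsx1 in each EWSR1-ERG pool than in any wild-type pool. The difference was -0.32 (two-sided exact permutation p = 0.1, which 3 pools against 3 cannot go below, and 0.3 adjusted over the 3 pairs). For vsx1 to rx1 the difference was 0.35 (exact permutation p = 0.2, adjusted 0.3), with overlapping groups.

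Most genes that photoreceptors use for light detection fell far more than the factors. Of 43 tested photoreceptor effector genes (opsins and genes of phototransduction and the outer segment), 41 fell, beside 9.87% of all tested genes. The other 2, gnb3a (-0.17) and opn1mw2 (0.26), did not pass. Among those that fell, pde6h (ENSDARG00000070439) was at only -0.40 (edgeR adjusted p = 0.0244), a smaller decrease than that of crx. The list had its median log2 fold change at -2.39. The smallest p-values in it were those of irbp, which encodes a retinoid carrier of the space around photoreceptors (-3.12, edgeR adjusted p = 1.92e-09), opn1sw1 and opn1mw1. Their summed expression, over the 47 genes found in the files, went from 9895 ± 345 CPM in wild type to 1606 ± 145 CPM with EWSR1-ERG (mean ± SD, n = 3 each), or 6.16-fold lower (two-sided exact permutation p = 0.1, the smallest possible). Crx accounted for 14.3, 14.9 and 13.9 counts per 1000 effector counts in wild-type pools and for 56.2, 50.5 and 55.0 in EWSR1-ERG pools. Relative to the effector genes crx was therefore 3.75-fold higher, a log2 difference of 1.91.

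The same shift was seen with every factor examined this way. For otx5 the log2 difference of the ratio was 1.83, for nr2e3 1.81, for rx1 1.88, for rx2 1.33 and for vsx1 2.23, with no overlap between the groups for any of them. Each of these 6 ratios had a two-sided exact permutation p of 0.1, the smallest that 3 against 3 allow, and 0.1 after adjustment over the 6. For rx2, the factor with the largest decrease, there were 1.10, 0.94 and 1.14 counts per 1000 effector counts in wild-type and 2.45, 2.38 and 2.86 in EWSR1-ERG pools. These differences come from the effector genes falling further than the factors, since each of the 6 factors fell itself. All 6 ratios share the effector sum, which was 6.16-fold lower, so any gene that fell by less shows such a shift. The 6 p-values are therefore not separate results.

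**Figure D3:**
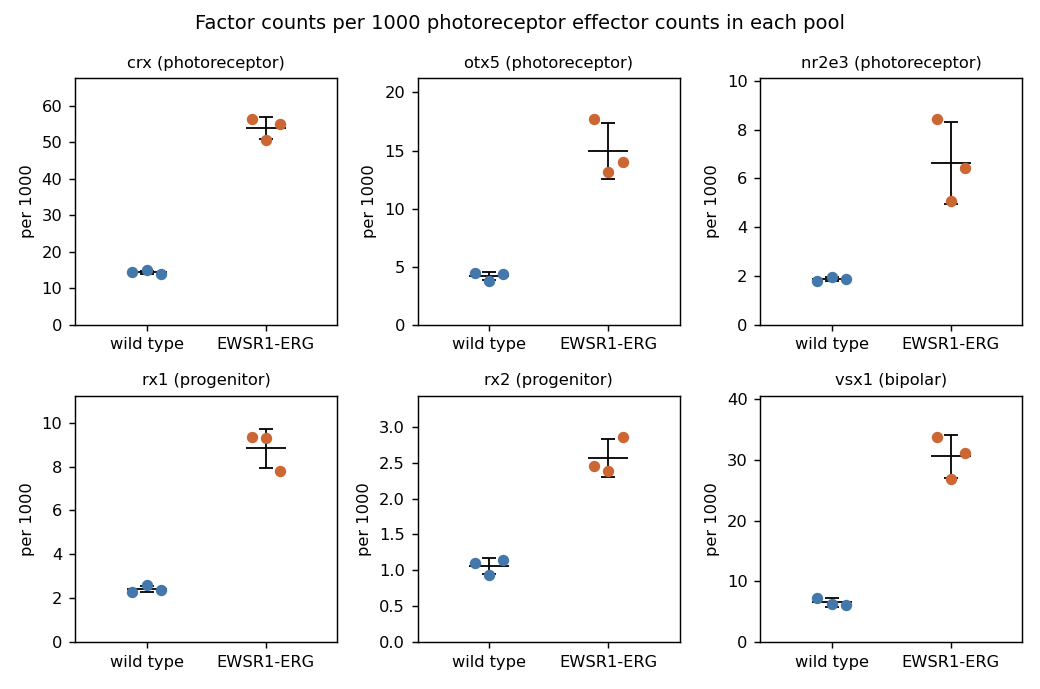
Counts of 6 retinal factors per 1000 counts of the photoreceptor effector genes in each pool (linear axes from 0, a scale of its own in each panel), with the mean and SD as bars. In every panel the 3 EWSR1-ERG pools lie above the 3 wild-type pools, crx at 53.9 ± 3.01 against 14.4 ± 0.468.

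Several of the factors are tied in zebrafish to particular photoreceptor types, and each can be set beside the opsin of that type. These opsins were picked for that link after their values were seen. Tbx2b stood at 0.11, while the ultraviolet opsin gene opn1sw1 fell from 1702 ± 102 to 194 ± 9.89 CPM (log2 fold change -3.13, edgeR adjusted p = 2.43e-09). Thrb did not pass at -0.45, while the red opsin genes opn1lw1 (-2.82, edgeR adjusted p = 2.43e-09) and opn1lw2 (-2.72, edgeR adjusted p = 8.57e-09) fell. Nr2e3 fell by 0.81, and the rod opsin gene rho fell by 3.31 (edgeR adjusted p = 2e-08), from 1793 ± 149 to 181 ± 43.0 CPM. For green cones, the homeobox gene six7 fell by 0.66 (24.7, 24.4 and 28.7 CPM against 16.8, 16.1 and 16.1 CPM, edgeR adjusted p = 0.00343), and the green opsin gene opn1mw1 fell by 2.73. Another green opsin gene, opn1mw2, had 10.4 ± 0.386 CPM in the wild-type against 12.3 ± 1.92 CPM in the EWSR1-ERG pools (SD, n = 3 each). At 0.26 it did not pass (edgeR adjusted p = 0.358), although its groups did not overlap. Every EWSR1-ERG pool lay above every wild-type pool for 17.1% of all tested genes. Foxq2, a factor of blue cones, had a log2 fold change of -0.97 on few counts (edgeR adjusted p = 0.0614), and did not pass, while the blue opsin gene opn1sw2 fell by 2.58 (edgeR adjusted p = 2.43e-09). The estimate for the factor was closer to 0 than that for the opsin in these pairs, except for six7 and opn1mw2; the difference was not tested pair by pair.

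The wider lists of retinal factors held genes that moved in both directions. Their counts are to be read beside all tested genes, of which 9.87% fell and 7.46% rose by the same rule. Beside the 5 photoreceptor factors described above, the list of photoreceptor fate factors held 16 tested genes, of which 5 fell, 3 rose and 8 did not pass (median log2 fold change -0.31). The largest decrease was that of nr1d1, a nuclear receptor of the circadian clock that also acts in photoreceptors of the mouse, from 63.5 ± 9.75 to 11.9 ± 1.34 CPM (-2.41, SE 0.144, edgeR adjusted p = 6.34e-08). Samd7, a chromatin regulator of photoreceptors, fell by 0.96 (edgeR adjusted p = 0.00618), with six7 as above. The proneural gene neurod1, listed as neurod in the files, fell by 0.47 (edgeR adjusted p = 0.00887) and the retinoid receptor gene rxrga fell by 0.71 (edgeR adjusted p = 0.0337), both named after their values were seen. The call of rxrga ended without wild-type replicate 1 (-0.78), wild-type replicate 2 (-0.54), EWSR1-ERG replicate 1 (-0.64) or EWSR1-ERG replicate 2 (-0.70), and by DESeq2 (-0.72). In whole embryos the cells behind the decreases in this list were not known, nor whether they were photoreceptors.

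The genes that rose in this list were mafba (0.49, edgeR adjusted p = 0.0101), prdm1b (0.56, edgeR adjusted p = 0.0257) and prdm1a (0.52, edgeR adjusted p = 0.0267). Mafba encodes a Maf-family factor that is also made in macrophages and hindbrain, and the prdm1 genes encode zinc finger repressors that are also used in skin, muscle, fin and blood cells. All 3 calls ended without wild-type replicate 1 (mafba 0.41, prdm1b 0.44, prdm1a 0.46) and without wild-type replicate 2 (mafba 0.49, prdm1b 0.53, prdm1a 0.48). That of prdm1b also ended without EWSR1-ERG replicate 3 (0.54), and that of prdm1a without EWSR1-ERG replicate 1 (0.43) and by DESeq2 (0.52). Otx2, the family member that acts upstream of crx, was at 51.8, 51.5 and 55.3 CPM in the wild-type pools, compared with 42.7, 54.2 and 60.8 CPM in the EWSR1-ERG pools. Its interval, from -0.28 to 0.28 (edgeR adjusted p = 0.998), lies above the estimates of crx and otx5. Otx2 is expressed in forebrain and midbrain as well as in the eye. The paralog of tbx2b, tbx2a, did not pass at -0.28 (edgeR adjusted p = 0.14).

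Beside rx1, rx2 and atoh7, the list of retinal progenitor factors held 19 tested genes, of which 3 fell, 2 rose and 14 did not pass (median log2 fold change -0.22). By the same rule 9.87% of all tested genes fell and 7.46% rose, so these counts are not read as a trait of progenitor factors. The genes that fell were six3a (-0.86, SE 0.186, edgeR adjusted p = 0.00597), six6b (-0.67, edgeR adjusted p = 0.0128) and rx3 (-0.82, edgeR adjusted p = 0.0267), homeobox factors of the eye field that are also active in the forebrain or hypothalamus. Rx3 stood at 7.96, 7.36 and 7.00 CPM for wild type against 5.21, 3.15 and 4.22 CPM for EWSR1-ERG, so that rx1, rx2 and rx3 all fell. The call of rx3 ended without wild-type replicate 1 (-0.77), wild-type replicate 2 (-0.83), EWSR1-ERG replicate 2 (-0.68) or EWSR1-ERG replicate 3 (-0.82), and by DESeq2 (-0.82). That of six6b ended without wild-type replicate 1 (-0.63) or wild-type replicate 2 (-0.65). In the whole list, with the 3 factors, 5 genes fell, and 3 fell without wild-type replicate 1 or wild-type replicate 2.

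The genes that rose were hmx4, a homeobox gene of eye and ear (0.44, edgeR adjusted p = 0.0297), and ccnd1, a cyclin of dividing cells throughout the embryo (0.33, edgeR adjusted p = 0.0377). Without wild-type replicate 1 neither passed (hmx4 0.41, ccnd1 0.31), nor without wild-type replicate 2 (0.44 and 0.29), nor without EWSR1-ERG replicate 2 (0.44 and 0.32). Hmx4 also lost its call without EWSR1-ERG replicate 1 (0.38) and ccnd1 without EWSR1-ERG replicate 3 (0.33), and by DESeq2 none of the list rose. Pax6a and sox2, broad progenitor factors, did not pass, at -0.36 and -0.10; pax6a did without wild-type replicate 3 (-0.46).

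In the bipolar list, beside vsx1, 9 of 16 tested genes fell, none rose and 7 did not pass. The median log2 fold change of these 16 was -0.59. By the same rule 9.87% of all tested genes fell and 7.46% rose. Of the 9 that fell, isl1 (-0.56) and bhlhe22 (-0.57) encode transcription factors. Isl1 is also held by the ganglion cell list, and in whole embryos the cells behind these decreases were not known. The call of isl1 ended without wild-type replicate 1 (-0.49) or wild-type replicate 2 (-0.54). DESeq2 called none higher either. At an unadjusted p under 0.05 stood 13 of the 17 genes with vsx1. At least 5153 of all 17557 tested genes also met that threshold, since six3b, at an unadjusted edgeR p of 0.046, ranked 5153 by p. Cabp2a, a calcium-binding protein gene, ranged from 11.7 to 12.9 CPM over the wild-type pools and from 2.60 to 3.30 CPM over the EWSR1-ERG pools (-2.06, SE 0.210, edgeR adjusted p = 1.24e-05). Trpm1b, a paralog of the cation channel gene of ON bipolar cells, fell by 1.18 (edgeR adjusted p = 0.00032), and gnao1b, a G protein gene that is also broadly neuronal, fell by 1.00 (edgeR adjusted p = 8.95e-05). The 95% interval of trpm1b, from -1.55 to -0.80, lies below that of vsx1, from -0.64 to -0.15, while that of the G protein gene gng13b, from -0.85 to -0.36, overlaps it; the differences from vsx1 were not tested. Further genes of the ON bipolar synapse, like gng13b picked once their values were known, were the glutamate receptor gene grm6b (-1.23, edgeR adjusted p = 0.00414) and nyx (-1.69, edgeR adjusted p = 0.00234).

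**Figure D4:**
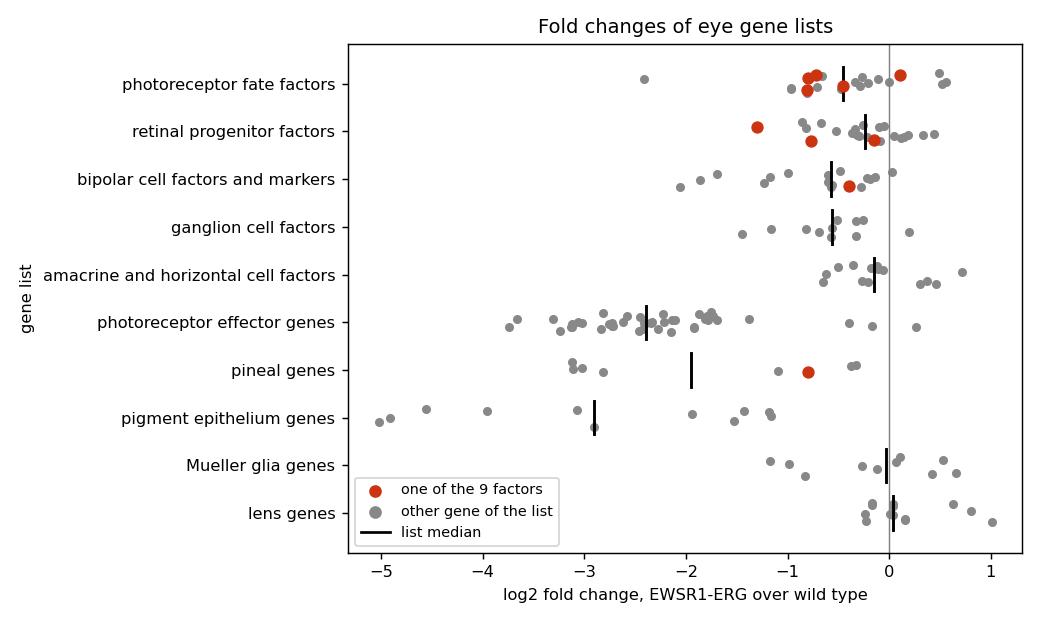
Log2 fold change of EWSR1-ERG over wild type for the tested genes of 10 eye gene lists, with the 9 retinal factors in red and each list's median as a black line. Photoreceptor effector genes (median -2.39) and pigment epithelium genes (median -2.90) lie far to the left of the lists of retinal factors and cell markers. These are the photoreceptor fate, progenitor, bipolar, ganglion, and amacrine and horizontal cell lists, with medians from -0.57 to -0.14. The bipolar and ganglion cell lists hold markers beside factors. Lens genes lie around 0 (median 0.04). A gene held by several lists is drawn in each.

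Genes of other cells of the eye and of the pineal organ moved unevenly beside these factors. The counts in their lists are to be read beside all tested genes, of which 9.87% fell and 7.46% rose by the same rule. Of 11 tested pigment epithelium genes all 11 fell, with a summed expression of 1511 to 2117 CPM in the wild-type pools, compared with 314 to 547 CPM in the EWSR1-ERG pools. The smallest p-values were those of LRAT (-4.91), rgra (-3.96) and rlbp1b (-4.56), which serve the handling of retinoids. LRAT was at 0.153, 0.875 and 1.23 CPM in EWSR1-ERG pools 1 to 3, where a count of 0 in pool 1 would allow up to 0.463 CPM. Its size is thus imprecise, and it went to -5.68 without EWSR1-ERG replicate 3. Others, such as dct (-1.94) and tyrp1b (-1.53), named after their values were seen, are also genes of skin pigment cells. Of 13 tested lens genes none passed by edgeR, and DESeq2 called 1 higher. An unadjusted edgeR p under 0.05 was reached by 2 of them, and by at least 5153 of all 17557 tested genes. The summed expression of the lens genes overlapped, at 2500 to 4352 CPM for wild type against 2925 to 4518 CPM for EWSR1-ERG. The ganglion cell list had 5 lower genes among 11, with eomesa (-1.44), tbr1b (-1.16) and sncga (-0.82) at the smallest p-values. Eomesa and tbr1b are also genes of the forebrain. Isl1 (-0.56, edgeR adjusted p = 0.0143) and rbpms2b (-0.57, edgeR adjusted p = 0.0145) fell too. The ganglion cell genes pou4f1 and pou4f2, of the family that acts after atoh7, stood at -0.26 and 0.19 and did not pass. Pou4f3 of the same family did not pass either, at -0.69 (edgeR adjusted p = 0.121). Its EWSR1-ERG pools all lay below its wild-type pools, as for 18% of all tested genes.

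Of 14 tested amacrine and horizontal cell genes 2 fell, neurod6b (-0.65, edgeR adjusted p = 0.0251) and neurod6a (-0.62, edgeR adjusted p = 0.0341), and 12 did not pass, among them ptf1a and foxn4. Across all tested genes 9.87% fell, so this count is not read as a trait of these cells. The neurod6b call ended without wild-type replicate 2 (-0.51), EWSR1-ERG replicate 1 (-0.49) or EWSR1-ERG replicate 2 (-0.64). That of neurod6a ended without wild-type replicate 1 (-0.54), wild-type replicate 2 (-0.72), wild-type replicate 3 (-0.59) and also without EWSR1-ERG replicate 1 (-0.46), and by DESeq2 (-0.62). Müller glial genes, which are shared with radial glia of the brain, went both ways. Of 10 tested, 3 fell (rlbp1a, slc1a2b and cx43), 3 rose (aqp1a.1, glulb and cahz) and 4 did not pass. Over all tested genes these shares were 9.87% lower and 7.46% higher. The calls of glulb (0.49 without wild-type replicate 2) and cahz ended when single pools were left out, that of cahz without wild-type replicate 1 (0.37), wild-type replicate 2 (0.38), EWSR1-ERG replicate 1 (0.34) or EWSR1-ERG replicate 3 (0.43). Of 8 tested genes in the pineal list 5 fell and 3 did not pass (median log2 fold change -1.95). Those that fell were otx5 itself, both genes listed as irbp (-3.12 and -3.11), gngt1 (-3.03) and opn1lw1, and all of these are expressed in retinal photoreceptors too. Tph1a, of serotonin synthesis, did not pass (-1.09, edgeR adjusted p = 0.102) although its groups did not overlap, nor did the homeobox gene lhx4 (-0.37). The melatonin synthesis gene aanat2 stood at 3.39, 4.84 and 6.55 CPM in the wild-type pools, compared with 4.29, 3.67 and 3.69 CPM in the EWSR1-ERG pools. It did not pass (-0.32, interval from -0.92 to 0.27, edgeR adjusted p = 0.487). The part of these cell types in the values of the factors was not tested.

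Genes with a pattern over the 6 pools most like that of a factor were found by the root mean square difference of log2 CPM after each gene was centred on its own mean. For crx they were ERICH1 (0.054), the brain creatine kinase gene ckbb (0.0564) and the secretogranin gene scg3 of secretory vesicles (0.0584), with log2 fold changes of -0.65 to -0.81. For rx1 they were cyp2ad6, JAKMIP1 and si:ch211-133l5.4 (0.049 to 0.0697), and for vsx1 ACSL1 (1 of 2), pop7 and dnah7l (0.0414 to 0.05). Among the 9 factors, the pattern of crx lay nearest to that of rx1 (0.114) and then to that of otx5 (0.143). These distances are descriptions over the same 6 libraries.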

How the data were processed

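Per the submitters' processing notes, Bowtie2, SAMtools, DESeq and build Zv9 were used by the authors; of the versions, the annotation, the counting tool and strandedness, none is given in the sources used here. The deposited files hold expected counts per Ensembl gene: whole numbers for every gene, while a last line with a DESeq size factor, not applied to the counts, is not whole. That line and a blank line were left out, so rounding changed nothing. Genes were filtered with filterByExpr (minimum count 10, minimum total 15), scaled by TMM and tested with edgeR 4.0.16 (robust quasi-likelihood F test, no covariate, all 6 pools, R 4.3.3), after a check on simulated counts. CPM are relative to the TMM-scaled totals. The SE of a log2 fold change is its absolute value over the square root of F, and 95% intervals use that SE, so both are approximations. A count of 0 would allow up to 3 counts, or 0.225 to 0.629 CPM; such limits and all depths cover counting error only. Log2 ratios used a prior count of 2 and exact permutation tests over pools. No pools held identical counts.

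The members, lists and tests were chosen with earlier results of these data known. The 10 lists held 194 entries, of which 182 were matched by symbol or the gene name table. All 9 factors were named, and from each list up to 3 further genes with the smallest p among those called in each direction, with the 3 genes nearest in pattern to crx, rx1 and vsx1; other genes are marked as named after their values were seen, or are factors and markers given for context. Alternatives were DESeq2 1.42.0, limma-voom (limma 3.58.1), other scaling, other filters, a replicate block and each pool left out. Sequences were not used here, and many list genes are counted without being named. Reads shared between paralogs could not be checked.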

Additional observations from a re-analysis of the deposited data

How the results depend on the processing

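Over 13 alternatives the calls of crx (log2 fold change -0.78 to -0.67), otx5 (-0.85 to -0.76), nr2e3 (-0.89 to -0.70), rx1 (-0.84 to -0.69) and rx2 (-1.47 to -1.20) held, and thrb, tbx2b and atoh7 passed in none. The bipolar count of 1 (vsx1, -0.46 to -0.32) went to 0 with DESeq2, with the replicate block (-0.39, adjusted p = 0.0618) and in 3 of the fits that left out a pool, so that it ran from 0 to 1 there; the cause was not tested. With a pool left out, genes called lower ranged from 981 to 1668 and genes called higher from 646 to 1334, both lowest without wild-type replicate 2 (981 and 646), followed by 1135 and 718 without wild-type replicate 1; the highest count of higher genes was that without EWSR1-ERG replicate 3. The cause was not tested. Correlations of deviations were -0.123, 0.0881 and -0.0213 for equal replicate numbers and -0.197 to 0.174 for unequal ones. With 3 pools per group they cannot show whether pools of equal number share a clutch or day. The replicate block gave 1482 lower and 1066 higher genes, against 1732 and 1309. Of the members, the block changed only the call of vsx1; among the other genes named it ended those of prdm1a (0.51), hmx4 (0.45), ccnd1 (0.33), neurod6a (-0.64) and rxrga (-0.70).

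The uncalled value of otx2 changed sign with upper-quartile scaling (-0.0059), limma-voom (-0.013), the replicate block (-0.020) and with a pool left out (-0.13 to 0.133). With another prior count or a pool left out, the differences in log2 ratio moved by less than the larger of both groups' SDs. This held for ratios between factors and to effector genes, though not always with the smaller SD. Leaving out a pool of 3 moves a group mean by less than that group's SD in any case, scaling aside. The shifts with a pool left out are therefore no measure of stability. The difference in the log2 ratio of nr2e3 to the effector genes ran from 1.63 to 1.99, beside a wild-type SD of 0.0472. That of crx to rx1 ran from -0.08 to 0.11, below 0 without EWSR1-ERG replicate 3. The median of all genes moved by under 0.1 on the log2 scale under each scaling. Each scaling assumes that most genes do not change, so this cannot show whether a shift shared by most genes was present. Thrb, rx2 and atoh7 rest on 23 to 68 counts per pool, which limits the precision of their values.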
